A study of Mus musculus with 12 samples.

Results

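The genes described here are 10 parts of the receiving and restraining side of Wnt signaling in the embryonic mouse cortex. They comprise 6 Frizzled receptors (Fzd1, Fzd2, Fzd3, Fzd7, Fzd8 and Fzd10) and 4 secreted antagonists (Sfrp1, Sfrp2, Dkk2 and Dkk3). They were listed by name, with earlier results of these data known and no measured value in the rule, from the 23513 genes of the deposited tables, and were read in all 25 clusters of nuclei and in 11 embryos. Of the 10 genes, 9 held enough counts to be tested in at least 1 cluster or major cell type, and Fzd10, with 107 unique molecular identifiers (UMIs, each standing for 1 captured RNA molecule) over 50550 nuclei, was tested in none.

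Wnt proteins are secreted, lipid-bearing ligands that bind the cysteine-rich domain of a Frizzled receptor on the receiving cell, and together with the co-receptors Lrp5 and Lrp6 this keeps β-catenin from being degraded. Frizzleds also act without β-catenin, in planar cell polarity and axon guidance, for which Fzd3 is best known in the forebrain. Sfrp proteins carry a Frizzled-like domain and bind Wnts outside the cell, whereas Dkk proteins bind the Lrp co-receptors, with Dkk3 a divergent member of that family. In the embryonic cortex the hem, at the medial edge, is a source of Wnts, and radial glia of the ventricular zone receive them.

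Nuclei came from cortices of C57BL/6J embryos whose dams received an intraperitoneal injection every day from embryonic day 8.5 until the day before collection, either of saline or of 2.5 g/kg ethanol (EtOH, given as a 25% v/v solution in saline), and were profiled with 10x 3' version 3.1 chemistry. The labels place the tissue at embryonic day 14. Saline was represented by 5 embryos of the dams S1 and S2, and EtOH by 6 embryos of the dams E1 and E2, and each library batch held 1 dam of either group (S1 with E1, S2 with E2). Another embryo of dam S2 was not analysed here. Littermates share a dam, so p-values over embryos measure the spread between embryos and not between 4 independent pregnancies.

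The study sorted its clusters into 5 major types, namely radial glia (RGC), intermediate progenitors (IPC), projection neurons (PN), interneurons (Int) and the remaining clusters. The fixed markers stood where these names place them, with Pax6 highest in Cluster 12, Eomes in Cluster 6, Neurod6 in Cluster 9, Reln in Cluster 14, Rarb in Cluster 11 and the hem genes Rspo2, Wnt3a and Wnt8b in Cluster 21. Sox2, listed for RGCs, was highest in Cluster 23, and the choroid plexus gene Ttr was highest in Cluster 21. Embryos held 2346 to 7639 nuclei and 14078316 to 83061737 UMIs. The median nucleus held 6325 to 9051 UMIs in saline embryos and 4072 to 6911 in EtOH embryos. Of the saline embryos, S2-4 stood at 6325 and the others at 8365 to 9051. The saline embryo S2-2 stood apart, with hem markers summing to 257 CPM (UMIs of a gene scaled to a common library total) over its nuclei against 10.6 to 107 in the other embryos. Across libraries, 311 barcodes occurred in 2 libraries and 3 barcodes in 3 or more. The latter marked 16 nuclei, of which 13 were among the 627 nuclei of Cluster 21 and 3 were in Cluster 4.

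The genes lay on 8 chromosomes of the GRCm38 build. Fzd7 was at chr1:59482424-59486955, Fzd1 at chr5:4753839-4758035, Fzd10 at chr5:128600844-128604093, Fzd2 at chr11:102604396-102608058 and Fzd3 at chr14:65192449-65262463. Sfrp1 was at chr8:23411502-23449632, Sfrp2 at chr3:83766321-83774316, Dkk2 at chr3:132085292-132180304 and Dkk3 at chr7:112116017-112159057. Fzd1, Fzd3 and Dkk3 were on the minus strand and the other 7 on the plus strand. The end of Sfrp2 overlapped the antisense gene Gm26771, and the Fzd3 locus holds the small gene Gm27263 on its own strand and the pseudogene Gm9086 on the opposite one. Whether counting used strand is not given in the sources used here, so reads of these pairs may not be told apart.

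RefSeq promoter sequences (GRCm38.p6) were at hand for 5 of the 10 genes, namely Fzd1, Fzd7, Fzd10, Sfrp2 and Dkk2. The 250 bases before each start were searched on both strands for the core that TCF and LEF, the DNA-binding partners of β-catenin, are known to bind, spelled CTTTGA or CTTTGT. The core was found in Fzd1, in Fzd7 and in Dkk2, which was lower in EtOH projection neurons, and these windows are shown so that the letters next to it can be read. Capitals mark the core, or its reverse complement TCAAAG or ACAAAG.
Dkk2, chr3:132085200-132085229, plus strand: aacgttttcactCTTTGTcactcttgaatt
Fzd7, chr1:59482006-59482035, plus strand: tccacagagaaaACAAAGcgcgctattgga
Fzd1, chr5:4758236-4758265, minus strand: ttcatagctactCTTTGTgccggagcggag
Fzd1, chr5:4758441-4758466, minus strand: cgcagcacTCAAAGtagcagtctgtg
The first base of the core was 80 bases before the start in Dkk2, 129 in Fzd7, and 37 and 242 in Fzd1. These are distances to the start of the RefSeq promoter entry, which for Fzd7 and Fzd1 lies upstream of the gene position given above. No match stood in the same window of Sfrp2 or Fzd10. A match occurred in 27.6% of all 32851 promoters searched, so a match in 3 of 5 is a description of these letters and no evidence of binding.

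To ask where each gene was expressed, counts were summed per embryo and cluster, scaled to CPM and averaged over embryos with at least 10 nuclei in that cluster. The clusters were built by the study from the same counts, so the order of levels is a description without a test. Neighbours in the order are said to be apart only where their mean difference within embryos was larger than the SD of those differences. Levels are compared between clusters for 1 gene at a time, never between genes, since they are not scaled to transcript length. In the plot of levels by cluster, Fzd2, Fzd8, Sfrp1 and Sfrp2 were brightest in RGC clusters, Dkk3 in Cluster 21, and Dkk2 in inhibitory clusters.

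**Figure D1:**
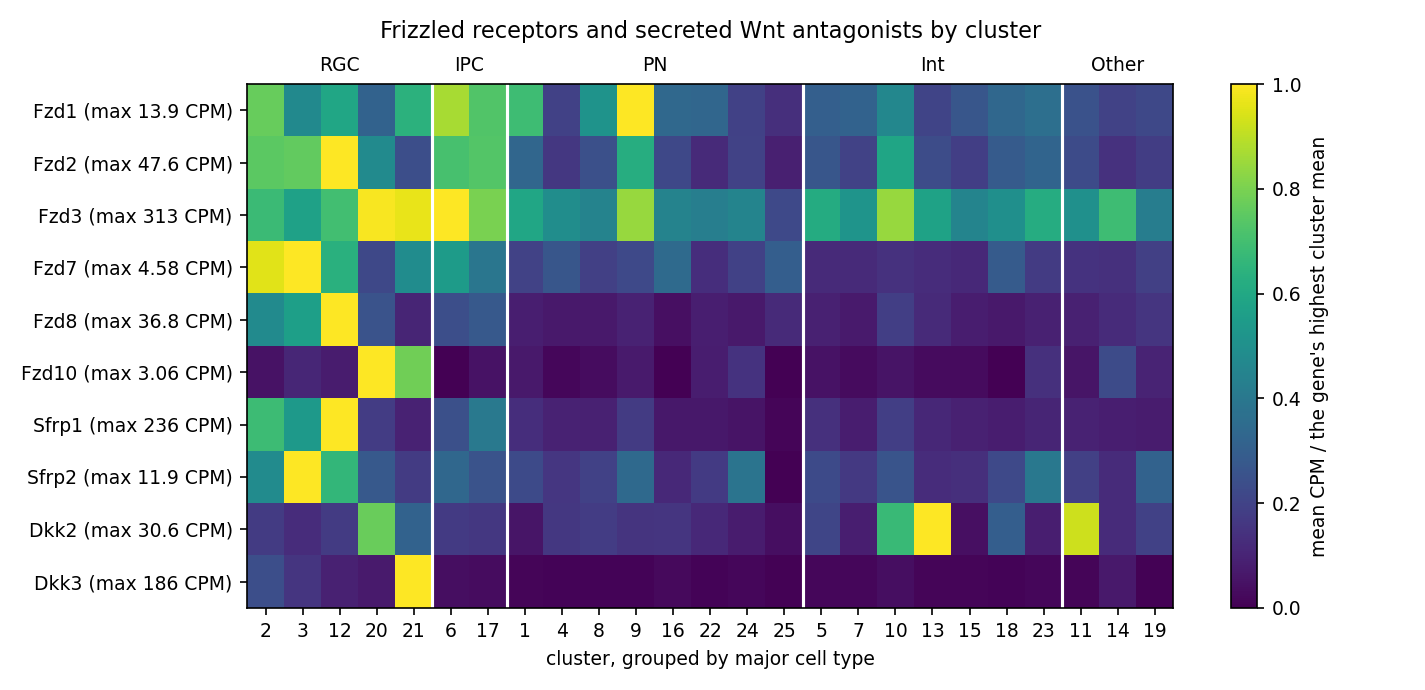
Mean CPM of each gene (rows) in each of the 25 clusters (columns, grouped by major cell type), as a fraction of the gene's highest cluster mean, which is printed beside its name. Fzd3 stays bright in most columns, Dkk3 is near its maximum in Cluster 21 alone (186 CPM), and Dkk2 is brightest in Cluster 13 (30.6 CPM) and Cluster 11 (28.3 CPM).

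Fzd3, the polarity and axon guidance receptor, had a UMI in 69.5% of all nuclei. Its level was 313 ± 23.9 CPM (SD, n = 11 embryos) in Cluster 6, the non-mitotic IPCs, 310.5 ± 45.8 (n = 9) in Cluster 20, RGCs, and 303 ± 75.0 (n = 10) in Cluster 21, the hem RGCs. Neighbours among these were not apart, with within-embryo differences of 3.64 ± 54.7 CPM between Clusters 6 and 20 and 21.9 ± 42.7 CPM between Clusters 20 and 21. The lowest level, 68.6 ± 15.9 CPM (n = 7), was in Cluster 25, a small group of projection neurons, and Cluster 19, the next above it at 133 ± 28.1, was apart from it. The highest level of Fzd3 was only 1.73 times its median over the 25 clusters. Cluster 5, migrating interneurons, serves as a common reference, and its share is given beside that of most genes. There 66.6% of nuclei held a Fzd3 UMI (30.7% after thinning each nucleus to 2000 UMIs). The level in Cluster 5 was above the gene's median over clusters for Fzd3 (192 CPM), Sfrp1 (33.1), Fzd2 (12.7), Dkk2 (6.37), Dkk3 (3.47) and Sfrp2 (2.69), so its share is a reference and not a measure of free RNA.

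Fzd2 and Fzd8 were highest in Cluster 12, the non-mitotic RGCs. Fzd2 reached 47.6 ± 8.49 CPM there and 36.1 ± 5.61 in Cluster 3, the interneuron precursors that the study groups with RGCs. Cluster 12 was above Cluster 3 in 10 of 11 embryos, by 11.5 ± 7.60 CPM. Below them, Cluster 2 (35.6 ± 5.41), Cluster 17 (34.9 ± 8.04) and Cluster 6 (33.8 ± 6.16) were not apart from their neighbours. The share of nuclei with a Fzd2 UMI was 21.3% in Cluster 12 and 8.84% in Cluster 5, or 8.90% and 2.51% after thinning, with median depths of 4934 and 6652 UMIs.

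Fzd8, at chr18:9212163-9218136, stood at 36.8 ± 8.85 CPM in Cluster 12, 20.8 ± 6.37 in Cluster 3 and 17.7 ± 5.20 in Cluster 2, against a median of 3.56 over the 25 clusters. Cluster 12 was above Cluster 3 in all 11 embryos, by 15.97 ± 9.54 CPM. Cluster 2 was above Cluster 17, the mitotic IPCs at 10.3 ± 3.24 CPM, also in all 11 embryos. The lowest level, 1.47 ± 1.498 CPM, was in Cluster 16, caudal subcortical projection neurons. A Fzd8 UMI was found in 16.5% of Cluster 12 nuclei and 2.34% of Cluster 5 nuclei, or 7.78% and 0.454% after thinning. It was spread thinly, since 350 of 2140 nuclei of Cluster 12 held it and only 4 held 3 or more UMIs.

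Fzd1 was the Frizzled whose highest cluster held neurons, at 13.9 ± 5.41 CPM in Cluster 9, the early projection neurons, followed by Cluster 6 at 12.04 ± 2.43 and Cluster 2 at 10.6 ± 2.81. None of its 24 neighbouring pairs of clusters was apart. By the thinned share of nuclei the order turned, with 3.10% in Cluster 6 and 2.78% in Cluster 9, against 0.962% in Cluster 5. Thus the first place of Cluster 9 was not separable from that of the IPCs.

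Fzd7 and Fzd10 were close to the floor. Fzd7 (741 UMIs in all) was highest in Cluster 3 at 4.58 ± 1.46 CPM and Cluster 2 at 4.39 ± 1.10, which were not apart, and stood at 0.538 ± 0.449 in Cluster 5. Its thinned share was 1.24% in Cluster 2, 0.642% in Cluster 3 and 0.0815% in Cluster 5. Of the 107 Fzd10 UMIs, 26 were in Cluster 20 and 16 in Cluster 21. In Cluster 20 the saline embryos held 0, 0, 4.74, 3.66 and 0 CPM and the 4 EtOH embryos 0, 0, 6.08 and 13.1 CPM. Among these 9 embryos Fzd10 was found in 2 of dam S2 and 2 of dam E2, with 2 to 11 UMIs in each. The EtOH embryo E1-2, left out for its 7 nuclei, held 1 UMI. The Cluster 20 level of 3.06 ± 4.47 CPM (n = 9) was not apart from the 2.40 ± 3.07 of Cluster 21.

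Among the secreted antagonists, Sfrp1 was highest in 3 of the 5 RGC clusters, followed by both IPC clusters. Its level was 236 ± 31.3 CPM in Cluster 12, 162 ± 39.2 in Cluster 2, 127 ± 23.5 in Cluster 3, 95.3 ± 14.1 in Cluster 17 and 57.3 ± 11.1 in Cluster 6, against a median of 22.96 over clusters and 3.59 ± 5.17 in Cluster 25. Cluster 12 was above Cluster 2 in 10 of 11 embryos, and Cluster 3 above Cluster 17 and Cluster 17 above Cluster 6 in all 11. Clusters 2 and 3 were not apart. The other RGC clusters lay below both IPC clusters, with 42.3 ± 15.5 CPM (n = 9) in Cluster 20 and 22.96 ± 13.8 (n = 10) in the hem Cluster 21, which was itself the median. In Cluster 12, 62.9% of nuclei held a Sfrp1 UMI (36.4% after thinning), against 16.6% in Cluster 5 (5.50%). The nuclei rich in it were common, as 362 of 2140 held 3 or more UMIs.

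Sfrp2, the other Wnt-binding antagonist, was highest in Cluster 3 at 11.9 ± 4.78 CPM, then in Cluster 12 at 7.87 ± 3.77 and Cluster 2 at 5.73 ± 1.08, with no neighbouring pair apart. The saline embryos held 7.98, 11.3, 11.7, 17.4 and 10.2 CPM in Cluster 3, and the EtOH embryos ran from 4.97 to 21.8 with a median of 11.9. Its share was 6.70% of nuclei in Cluster 3 and 1.85% in Cluster 5, or 2.61% and 0.358% after thinning.

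Dkk3 was the most concentrated gene of the list by cluster. It stood at 186 ± 55.9 CPM (n = 10) in Cluster 21, the hem RGCs, at 44.5 ± 14.9996 in Cluster 2 and at 28.4 ± 11.3 in Cluster 3, against a median of 3.11 over the 25 clusters, so that its highest level was 60.0 times its median. Cluster 21 was above Cluster 2 in all 10 embryos, by 140.8 ± 53.2 CPM, and no other neighbouring pair was apart. The share of nuclei with a Dkk3 UMI was 50.2% in Cluster 21 and 2.15% in Cluster 5, or 27.2% and 0.524% after thinning, with median depths of 7702 and 6652 UMIs. Within Cluster 21, 155 of 627 nuclei held 3 or more UMIs and together held 834 of the 1037 Dkk3 UMIs there. Of the 155, 61 were from S2-2, which supplied 206 of the 627 nuclei.

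Dkk2, a Lrp-binding antagonist, was the 1 gene of the list that was highest in inhibitory neurons. Its level was 30.6 ± 19.2 CPM in Cluster 13, interneurons, 28.3 ± 8.20 in Cluster 11, striatal interneurons, 23.6 ± 24.3 (n = 9) in Cluster 20 and 20.7 ± 10.2 in Cluster 10, late interneuron precursors, and none of its neighbouring pairs was apart. These levels were carried by few nuclei. In Cluster 13, 85 of 1304 nuclei held a Dkk2 UMI, and the 42 with 3 or more held 346 of its 401 UMIs (86.3%), with up to 34 in 1 nucleus. In Cluster 11, 84 of 2209 nuclei held 479 of 651 UMIs, and in Cluster 10, 45 of 2430 nuclei held 347 of 423 UMIs. In Cluster 20, 16 of 661 nuclei held 132 of 162 UMIs. There the 1 embryo of dam E1 stood at 74.8 CPM, against means of 10.8 (S1), 28.5 (S2) and 10.2 (E2), so the place of Cluster 20 leans on that embryo.

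**Figure D2:**
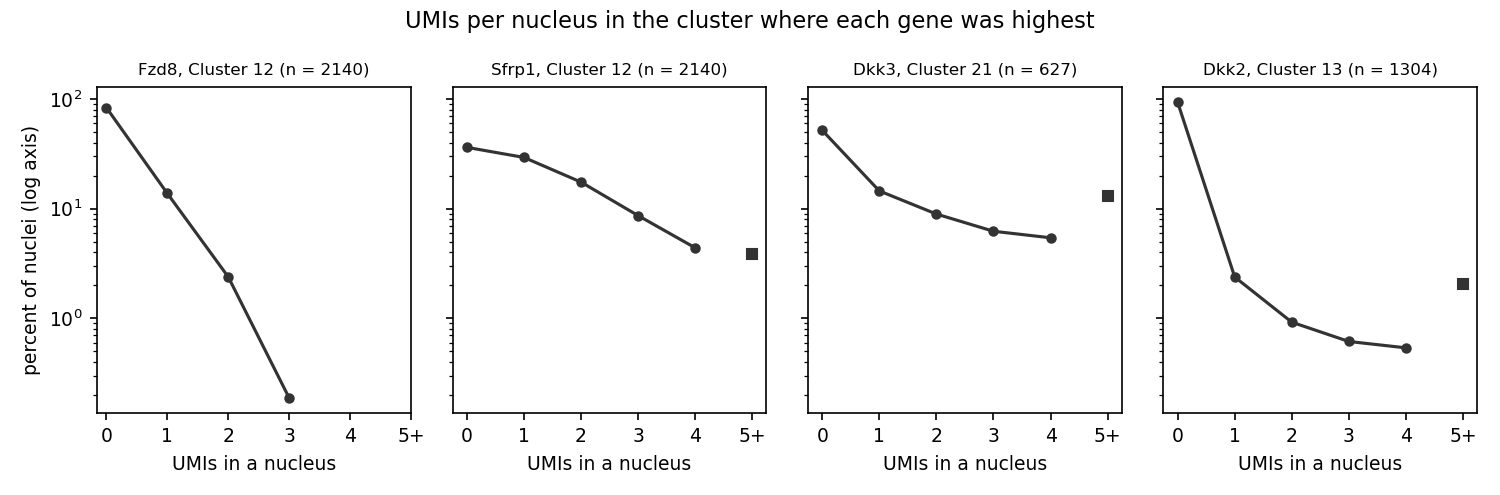
Percent of nuclei (log axis) with 0 to 4 UMIs (circles) and with 5 or more (square) of Fzd8, Sfrp1, Dkk3 and Dkk2, each in the cluster where its level was highest. Fzd8 falls away with no nucleus beyond 3 UMIs, whereas Dkk3 and Dkk2 have more nuclei in the pooled class of 5 or more than with exactly 4.

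The nuclei rich in a Dkk gene (3 or more UMIs) were compared with those of the same cluster that held none, as a description made after the values were seen. In Cluster 13 the Dkk2-rich nuclei held 965 CPM of Dach2, a transcriptional cofactor of the retinal determination family, against 221 in the rest. In Cluster 10 they held 179.7 CPM of Six3, a homeobox gene of ventral forebrain, against 41.2. In Cluster 21 the Dkk3-rich nuclei held 589 CPM of the Wnt agonist Rspo1 against 119, and 4400 CPM of the reelin adaptor Dab1 against 896. None of these genes had the highest ratio in its cluster. Dach2 stood behind 4930467D21Rik, Cemip, Trpc5 and Gm29865, and Six3 behind Grm4. Dab1 and Rspo1 stood behind Gm36640 and Sorcs2. In Cluster 4, rostral subcortical projection neurons, the 23 Dkk2-rich nuclei held 187 CPM of Rarb, the striatal marker fixed for Cluster 11, against 16.02, and 403 CPM of Ebf1 against 59.5. Between Rarb and Ebf1 in the order of ratios stood Cenpe (133.5 CPM against 10.97, with UMIs in rich nuclei of 2 embryos), B020031H02Rik and Ptprm. The rich nuclei came from 6 embryos, and those with Rarb UMIs from 3 of them. Rich nuclei had more UMIs over all genes in Cluster 4 (median 13571 against 9231), Cluster 10 (median 7273 against 5467) and Cluster 21 (9091 against 7079), but not in Cluster 13 (6448 against 6811).

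The genes most like each member were found by Pearson correlation of log2(CPM + 1) over the 25 cluster means among 13646 genes. These means share libraries and depth, so r is a description. Within the list, Fzd2 and Sfrp1 were the closest pair (r = 0.913), and Fzd8 was closest to Sfrp1 (r = 0.834). Genes outside the list were closer to each of them. These were Msantd3 for Fzd2 (r = 0.965), Utp6 for Sfrp1 (r = 0.939) and Gm11627 for Fzd8 (r = 0.940). Beyond the list, Dkk3 was closest to the collagen receptor gene Ddr2 (r = 0.955) and Eya4 (r = 0.941), Fzd10 to the growth factor inhibitor Spry1 (r = 0.935), Fzd7 to Alg11 (r = 0.862) and the receptor Fgfr3 (r = 0.859), and Fzd1 to Mbtps2 (r = 0.900) and the polarity gene Vangl2 (r = 0.893). The compared genes reached 5 CPM in some cluster, which Fzd10 (at most 3.06) and Fzd7 (at most 4.58) did not. Outside Clusters 20 and 21 Fzd10 did not exceed 0.698 CPM, so its r rests on few UMIs. Dkk2 had the weakest match, with Zfp503 (r = 0.681) and Six3 (r = 0.671).

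The comparison of EtOH with saline asked whether prenatal ethanol moved these genes within a cluster or a major cell type. Counts summed per embryo were tested over all genes with edgeR's quasi-likelihood test, and a gene was called at a Benjamini-Hochberg adjusted p under 0.05 with a fold change below 0.8 or above its inverse. In the clusters, 90 of the 250 pairs of gene and cluster passed the filter on low counts. Of these, 3 were called lower in EtOH (Fzd3 and Sfrp1 in Cluster 8 and Dkk2 in Cluster 4) and 0 higher, where 0.35% and 0.442% of all gene and cluster pairs were. With the batch as a replicate block the 3 calls became 0. At an unadjusted p under 0.05, 20 pairs were lower, 15 of them of Fzd3, and 2 higher by edgeR, where 7.83% and 9.54% of all gene and cluster pairs were. Of the other tools DESeq2 called 1 higher (Dkk3 in Cluster 21) and limma voom 1 (Fzd8 in Cluster 12).

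In the 5 major types, 41 of 50 pairs passed, and 2 were called lower (Fzd8 and Dkk2 in PNs) and 0 higher, where 1.29% and 2.46% of all gene and type pairs were. At an unadjusted p under 0.05, 11 pairs were lower, 5 of them of Fzd3, and 2 higher by edgeR, where 12.8% and 14.9% of all gene and type pairs were, while DESeq2 and limma voom called 0 higher. A change in the makeup of clusters within a type can move these sums without a change in any cluster, and its part was not tested. The estimates differed in sign between types. In PNs all 9 tested genes had a lower estimate in EtOH, with a median log2 change of -0.31 against 0.0094 over the 14604 genes tested, of which 48.3% were lower. In Int all 8 tested genes had a lower estimate and none was called, with a median of -0.34 against 0.010 over 14525 genes, of which 48.4% were lower. In RGCs only 3 of 9 had a lower estimate (median 0.035 against 0.0040 over 14282 genes, of which 49.3% were lower). In IPCs 2 of 8 did (median 0.10 against 0.0078 over all genes, 48.8% lower). In the remaining clusters 6 of 7 did (median -0.23 against 0.00042, 49.9% lower).

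**Figure D3:**
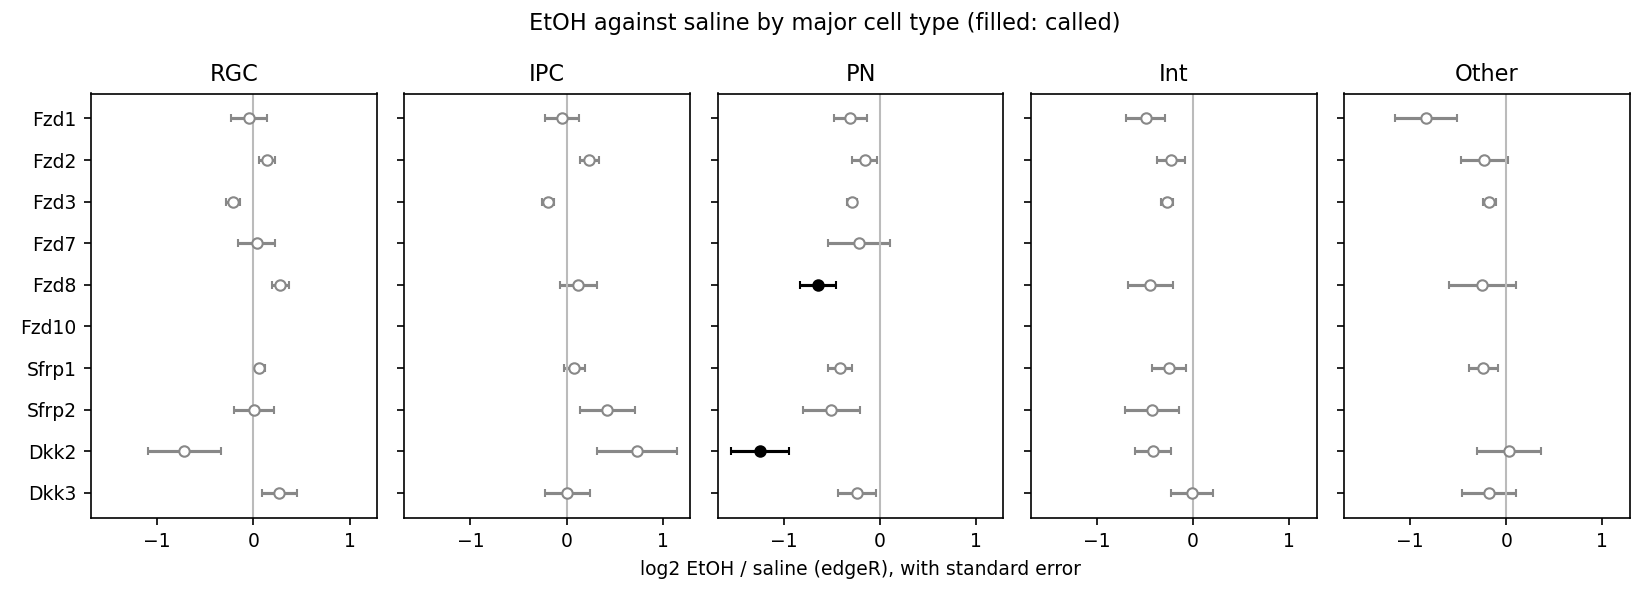
Log2 ratio of EtOH to saline (edgeR, bars are standard errors) for each tested gene in the 5 major types, filled where called. All points in PN and Int lie left of 0, and Fzd8 and Dkk2 in PN are the filled points.

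Markers of other cells moved with these values. In PN nuclei the summed RGC list (5 of 5 genes tested, 0 called) ran from 28.5 to 39.2 CPM in saline and 17.3 to 33.7 in EtOH, and the dividing list (Top2a and Mki67, 0 of 2 called) from 37.3 to 71.2 and 22.8 to 45.2. The interneuron list (1 of 3 called, Dlx1, lower) ran from 38.0 to 100.6 and 19.7 to 49.1, and of the IPC list Eomes was called lower (1 of 2). S2-2 held the highest PN level of Fzd3, Fzd8, Sfrp1, Sfrp2 and Dkk2 among saline embryos. The part of these lists, of depth, of cluster makeup and of S2-2 in the PN values was not tested beyond the alternatives given for each gene.

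Fzd3 had a lower estimate in EtOH in all 5 major types, past the adjusted p threshold in PNs and Int. In PNs the saline embryos held 181, 175, 176, 194 and 175 CPM and the EtOH embryos 134 to 164 with a median of 154, so the groups did not overlap, as held in this direction for 1.79% of genes tested in PNs. The log2 change was -0.29 ± 0.05 (SE, 18.1% lower) with an adjusted p of 0.0235 by edgeR, which 5.25% of genes reached in this direction, but it stayed inside the fold limit and was not called. In Int the saline embryos held 203, 194, 197, 199 and 196 CPM and the EtOH embryos 153 to 195 with a median of 172. Here the log2 change was -0.27 ± 0.06 (adjusted p = 0.0351, reached in this direction by 2.86% of genes), and only 1 EtOH embryo lay within the saline range.

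Within the batches the PN means fell from 178 CPM (dam S1) to 154 (E1) and from 182 (S2) to 152 (E2). Leaving out 1 embryo at a time gave PN changes of -0.31 to -0.26 with adjusted p-values of 0.00027 to 0.0688, above the threshold without E2-2, E2-3, S1-1, S1-2 or S2-1. After thinning every nucleus to 2000 UMIs the PN change was -0.28 (adjusted p = 0.0288) and the Int change -0.23 (adjusted p = 0.109). Over the 9 alternative fits that kept all embryos, the PN change was -0.31 to -0.28. Their adjusted p-values in PNs ran from 0.00030 to 0.164, so some of these fits did not pass the threshold. The difference of the Fzd3 effect between RGCs and PNs was 0.084 ± 0.059 on the log2 scale (limma, adjusted p = 0.669).

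**Figure D4:**
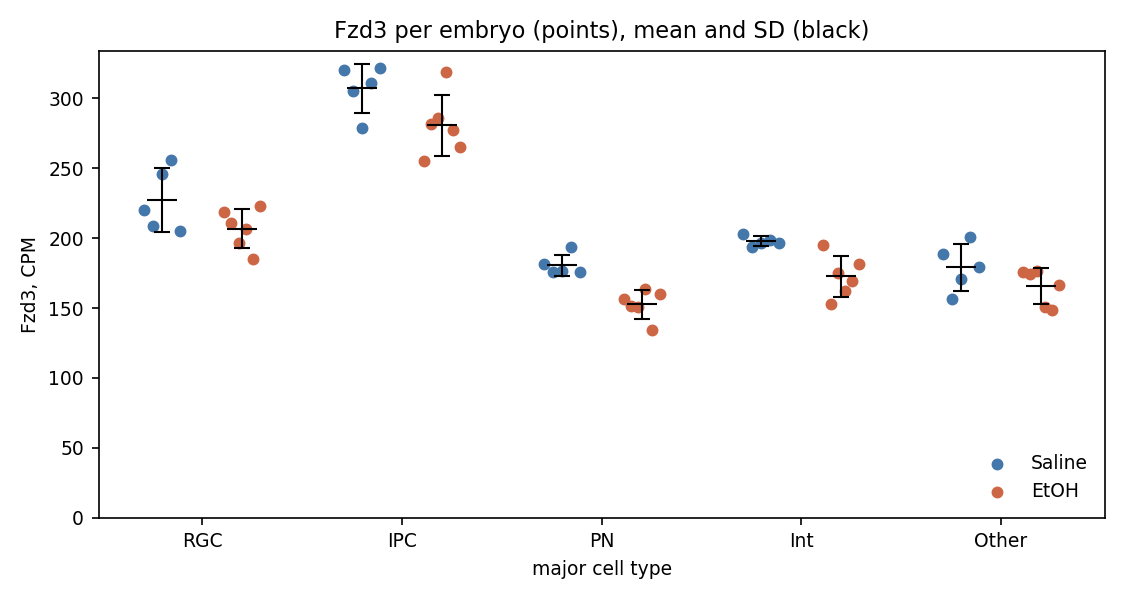
Fzd3 in CPM for each embryo (points) in the 5 major cell types, saline in blue and EtOH in orange, with the mean and SD in black. The EtOH mean is below the saline mean in every type, and in PN every EtOH embryo (134 to 164) lies below every saline embryo (175 to 194).

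By cluster, Fzd3 had a lower estimate in EtOH in 23 of 25 clusters and an unadjusted p under 0.05 in 15 of them. Among the 2973 genes tested in all clusters, 18.5% were lower in at least 23 clusters and 2.86% were lower at that p in at least 15. The exceptions were Clusters 21 and 25, at log2 changes of 0.31 ± 0.17 and 0.31 ± 0.31. In Cluster 8, a projection neuron cluster, the saline embryos held 149.9, 145, 175, 176 and 138 CPM and the EtOH embryos 98.9 to 140.4 with a median of 129, and 1 EtOH embryo, E2-4, lay within the saline range. The log2 change of -0.35 ± 0.08 (21.8% lower, adjusted p = 0.0423) was called, where 0.865% of genes were called lower in that cluster. It was not called with the batch as a replicate block (adjusted p = 0.0573), with counts summed per dam (0.153), after thinning (0.154) or without any 1 embryo other than S2-4 (0.0529 to 0.120), and was after leaving out S2-4 (0.0011).

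Fzd8 was called lower in PNs, while its estimate in RGCs was higher and was not called. In PNs, where it was near its floor, the saline embryos held 2.54, 2.52, 3.24, 4.35 and 4.29 CPM and the EtOH embryos 1.42 to 2.45 with a median of 2.31, without overlap. The log2 change was -0.65 ± 0.19 (36.1% lower, adjusted p = 0.0457), where 2.36% of genes were called lower. In RGCs the saline embryos held 14.8, 16.5, 16.8, 15.6 and 19.95 CPM and the EtOH embryos 18.6 to 24.3 with a median of 21.3. This was a log2 change of 0.28 ± 0.09 that missed the threshold (adjusted p = 0.0704), with 2 of 6 EtOH embryos inside the saline range.

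In Cluster 12, where Fzd8 was highest, the saline embryos held 21.98, 26.8, 29.8, 29.5 and 37.7 CPM and the EtOH embryos 38.9 to 51.2 with a median of 41.1. The groups did not overlap, which in this direction held for 0.984% of genes there, but the log2 change of 0.54 ± 0.17 had an adjusted p of 0.103. The RGC marker list also ran higher in the EtOH embryos of this cluster, at 599.6 to 716 CPM against 533 to 609, with Hes1 called higher (1 of 5 genes). Within the batches the Cluster 12 means were 24.4 (S1) and 41.1 (E1), and 32.3 (S2) and 44.3 (E2).

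The difference of the Fzd8 effect between RGCs and PNs was 0.90 ± 0.19 on the log2 scale by limma (unadjusted p = 0.000278), the smallest p of the 25 differences tested for these genes, and its adjusted p of 0.108 missed the threshold. In all, 0 of the 25 passed and 8 had an unadjusted p under 0.05. Of the 8, 4 were among the 9 differences between RGCs and PNs, where 0.00737% of the 13573 genes passed and 10.6% had an unadjusted p under 0.05. A further 3 were among the 8 between RGCs and Int (8.97% of all genes) and 1 among the 8 between PNs and Int (5.4%). For Sfrp1 the same difference was 0.49 ± 0.11 (adjusted p = 0.129). The call of Fzd8 in PNs was lost with any 1 embryo left out other than S2-4 (adjusted p from 0.0591 to 0.0894), with counts summed per dam (0.232), with limma voom (0.0823) and without the top 5% of nuclei by UMIs (0.0597), and it held with the replicate block (0.0422).

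Fzd1 and Fzd2 showed no call. Fzd1 had lower estimates in 11 of 12 places tested. In Int the saline embryos held 5.64, 4.27, 3.97, 7.51 and 5.48 CPM and the EtOH embryos 2.20 to 4.76 with a median of 4.07 (log2 change -0.49 ± 0.20, adjusted p = 0.124). Fzd2 had its smallest adjusted p in IPCs, where the saline embryos held 28.2, 28.2, 28.0, 33.5 and 34.7 CPM and the EtOH embryos 31.2 to 40.8 with a median of 38.0 (log2 change 0.24 ± 0.10, adjusted p = 0.158). In Cluster 12, its highest, Fzd2 had a log2 change of -0.0022 ± 0.16. Fzd7 was tested in 3 places, with log2 changes of -0.21 to 0.14 and adjusted p-values of 0.684 or more.

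Of the antagonists, Sfrp1 was lower in Cluster 8. The saline embryos held 27.4, 19.4, 28.9, 35.3 and 23.6 CPM and the EtOH embryos 13.4 to 21.3 with a median of 16.7, so that 1 EtOH embryo lay within the saline range. The log2 change was -0.69 ± 0.16 (38.2% lower, adjusted p = 0.0423). The share of nuclei with a Sfrp1 UMI in this cluster was 20.8% in saline and 10.4% in EtOH, and 5.33% and 3.98% after thinning, close to the 5.50% of Cluster 5. On thinned counts the log2 change was -0.51 (adjusted p = 0.424), with the replicate block the adjusted p was 0.0509 and with counts summed per dam it was 0.111. Leaving out any 1 embryo other than S2-4 also ended the call (adjusted p from 0.0529 to 0.120). In the same nuclei Mki67 was called lower, and the dividing list ran from 38.9 to 71.0 CPM in saline and 11.9 to 41.0 in EtOH.

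In PNs as a whole, Sfrp1 stood at 24.4, 22.5, 27.9, 37.4 and 29.1 CPM in saline and 16.3 to 26.3 in EtOH with a median of 21.2. The log2 change of -0.41 ± 0.13 just missed the threshold (adjusted p = 0.0505), and it passed with the replicate block (-0.45, adjusted p = 0.0296) and with DESeq2 (0.0183). In RGCs, where Sfrp1 is abundant, the saline embryos held 118, 125, 131, 152 and 144 CPM and the EtOH embryos 133 to 159 with a median of 148 (log2 change 0.058 ± 0.067, adjusted p = 0.601). Sfrp2 was tested in 6 places and called in none by edgeR (0 with an unadjusted p under 0.05), with its smallest adjusted p in PNs (log2 change -0.51 ± 0.30, adjusted p = 0.248).

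Dkk2 was called lower in Cluster 4 and in PNs, and its change in Cluster 4 was the largest decrease among the pairs that passed the filter on low counts. In Cluster 4, rostral subcortical projection neurons, the saline embryos held 5.95, 3.16, 14.4, 14.52 and 6.64 CPM and the EtOH embryos 0.695 to 3.62 with a median of 1.51. Only 1 EtOH embryo, E2-4, reached into the saline range. The log2 change was -2.38 ± 0.47 (5.20-fold lower, adjusted p = 0.0495), where 0.386% of genes were called lower in that cluster.

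These were few molecules, 198 UMIs in saline and 27 in EtOH. A Dkk2 UMI was found in 75 of 2037 saline nuclei and 19 of 1847 EtOH nuclei, and nuclei with 3 or more numbered 22, from all 5 saline embryos, and 1 in EtOH. As embryo means the shares were 3.96% and 1.04%, or 1.47% and 0.446% after thinning, against 0.878% over all embryos in Cluster 5. The interneuron marker list in Cluster 4 ran from 39.0 to 102.7 CPM in saline and 14.2 to 55.1 in EtOH (2 of 3 genes tested, 0 called). The striatal marker Rarb, higher in the Dkk2-rich nuclei of this cluster, ran from 7.52 to 39.7 CPM in saline and 2.84 to 26.1 in EtOH and was not called by edgeR. The part of these markers, and of the greater depth of the rich nuclei, in the Dkk2 result was not tested. The call was lost with the replicate block (adjusted p = 0.0536), without the shared barcodes (0.0503), with limma voom (0.0533), with counts summed per dam (0.150), without the top 5% of nuclei by UMIs (0.0937) and without any 1 embryo other than S1-2 or S2-4 (0.0765 to 0.125), while the log2 change stayed between -2.79 and -2.12 under the alternatives that could be fitted, which leave out thinning, where its counts were too few.

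In PNs together, Dkk2 stood at 4.98, 3.11, 7.11, 9.97 and 4.55 CPM in saline and 0.988 to 3.40 in EtOH with a median of 2.59. The log2 change was -1.25 ± 0.31 (2.37-fold lower, adjusted p = 0.0336), and 2 EtOH embryos lay within the saline range. It was also called with the replicate block (adjusted p = 0.0282), but not with counts summed per dam (0.140), with limma voom (0.0521), without any 1 embryo other than S2-4 (0.0510 to 0.0839) or after thinning (-1.23, 0.0568). In Cluster 13, where Dkk2 was highest over all embryos, the saline embryos held 57.3, 37.6, 55.6, 25.9 and 46.9 CPM and the EtOH embryos 0 to 38.5 with a median of 17.8 (log2 change -1.10 ± 0.37, adjusted p = 0.172). Over the 10 alternative fits that kept all embryos, the log2 change there was -1.38 to -1.10. Their adjusted p-values ran from 5.1e-05 to 0.491, with 1 of the 10 past the threshold. With 1 embryo left out they ran from 0.110 to 0.391. Among EtOH embryos alone its mean there, 18.8 ± 15.3 CPM, was below those of Cluster 11 (29.4 ± 8.30) and Cluster 10 (21.9 ± 8.77). In Cluster 11 the log2 change was 0.098 ± 0.250 (adjusted p = 0.876).

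**Figure D5:**
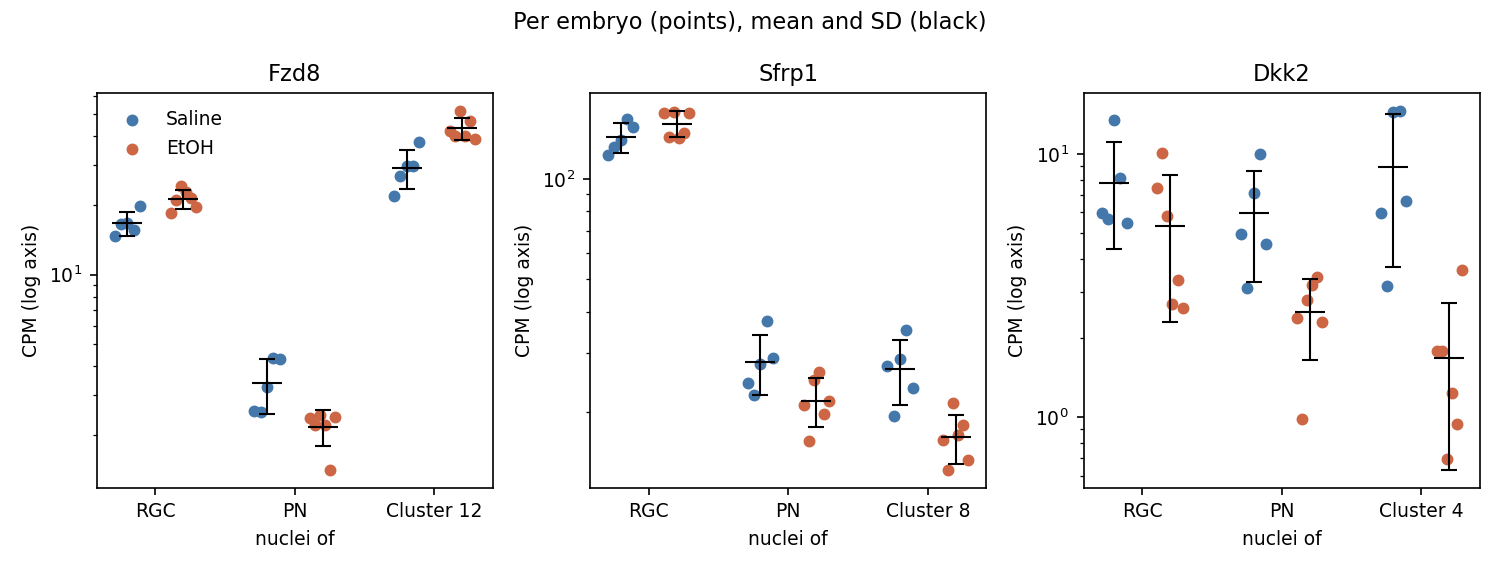
CPM on log axes for each embryo (points), saline in blue and EtOH in orange, with mean and SD in black, for Fzd8, Sfrp1 and Dkk2 in RGCs, in PNs and in 1 further cluster each. In Cluster 12 Fzd8 lies at 38.9 to 51.2 in EtOH against 21.98 to 37.7 in saline, it is lower in EtOH PNs, Sfrp1 is lower in Cluster 8, and Dkk2 is lower in PNs and Cluster 4.

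In 2 clusters where Dkk2 had too few counts to be tested, its groups did not overlap. In the hem Cluster 21 the saline embryos held 16.9, 19.7, 35.3, 17.9 and 6.42 CPM and the 5 EtOH embryos with at least 10 nuclei were all at 0. These were 89 UMIs in 25 of 454 saline nuclei against 0 in 170 EtOH nuclei. The pooled saline level was 7.20 times a floor of 3 counts over the EtOH group. That floor treats UMIs as independent, whereas the saline UMIs sat in few nuclei, so it gives no safe lower bound on the fold. The EtOH embryo E2-1, left out for its 3 nuclei, held 1 Dkk2 UMI. Of the genes tested in Cluster 21, 1.58% had every EtOH embryo below every saline embryo. The interneuron marker list in these nuclei ran from 79.3 to 202 CPM in saline and 4.33 to 157 in EtOH, and its part in the Dkk2 values was not tested. In Cluster 7, interneurons, the saline embryos held 2.69, 3.27, 2.33, 13.1 and 3.01 CPM and the EtOH embryos 0 to 1.91 with a median of 0.601. Pooled over embryos these were 90 and 18 UMIs, or 3.64 and 1.40 CPM, and 0.665% of tested genes were as separate in this direction. Fzd7 was likewise separate and untested in Cluster 14, the Cajal-Retzius cells, with 14 UMIs in saline (1.46 CPM pooled) and 0 in EtOH (0.521% of tested genes). These shares are over genes that passed the filter on low counts, which the pairs described here did not, so the sets are unlike.

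Dkk3 had a higher estimate in EtOH in the hem RGCs that was not called by edgeR and was by DESeq2 (adjusted p = 0.0444). In Cluster 21 the saline embryos held 128, 101, 171, 172 and 154 CPM and the 5 EtOH embryos with at least 10 nuclei 229, 216, 215, 298 and 179.7, so the groups did not overlap. This held in the same direction for 1.55% of the genes tested there, and 0.0156% were called higher. The log2 change was 0.64 ± 0.16 (adjusted p = 0.0838). The hem marker list moved the same way, from 3480 to 4476 CPM in saline to 4497 to 5824 in EtOH (3 of 3 tested, 0 called), and its part in the Dkk3 values was not tested. Without the barcodes found in 3 or more libraries the change was 0.63 (adjusted p = 0.0804), without S2-2 it was 0.70 (0.137), and with at least 30 nuclei per embryo it was 0.50 (0.322).

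To place these genes in their pathway, 48 other genes were read, of which 47 were among the genes counted. They were Wnt receptors, co-receptors and modulators, together with Smo, which serves Hedgehog signaling and is included in the counts below. In clusters, 586 of their gene and cluster pairs were tested, and 5 were called lower and 1 higher, where 0.35% and 0.442% of all gene and cluster pairs were (median log2 change -0.059 against 0.0057 over all genes). In major types, 163 pairs were tested, and 6 were called lower and 1 higher, where 1.29% and 2.46% of all gene and type pairs were (median -0.11 against 0.0065). All of these calls were close to the threshold, with adjusted p-values of 0.0268 to 0.0474 by edgeR, and alternative fits are not given for them. The glypican Gpc6, a heparan sulfate proteoglycan of the cell surface, was called lower in Clusters 3, 5 and 16, the last from 764 ± 194 CPM (n = 5) to 379.5 ± 83.6 (n = 6). Its relative Gpc4 was called lower in Cluster 11 (80.8 ± 9.34 to 54.8 ± 18.1 CPM), in Int and in the remaining clusters. The antagonist Draxin was called higher in Cluster 16 (167 ± 23.02 to 231 ± 16.02 CPM) and the polarity gene Prickle2 lower in Cluster 1 (117 ± 13.8 to 94.5 ± 10.0 CPM). Of the 7 calls in major types, 5 were in Int, where Gpc4, the polarity gene Celsr2 (35.1 ± 2.70 to 29.5 ± 3.21 CPM), Tpbg (3.62 ± 1.31 to 2.00 ± 0.334 CPM) and the Dkk receptor Kremen1 (6.86 ± 0.588 to 5.26 ± 0.689 CPM) were lower and Porcn, the enzyme that adds the lipid to Wnts, was higher (17.6 ± 2.59 to 23.7 ± 1.95 CPM). These 4 genes beside Gpc4 are named after their values were seen. The ubiquitin ligase Znrf3, which removes Frizzleds from the membrane, was called in no cluster but lower in PNs, and is named after its values were seen (72.6 ± 9.75 to 59.6 ± 2.51 CPM).

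The remaining family members in this list were sparse. Fzd6 and the Wnt-binding inhibitor Wif1 had their highest levels, 16.7 and 17.4 CPM, in Cluster 21 beside Dkk3. Fzd4, Fzd5, Fzd9, Frzb, Sfrp4, Sfrp5, Dkk1, Dkk4 and Dkkl1 did not exceed 5.74 CPM in any cluster.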

How the data were processed

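Single-nucleus libraries of 11 embryos were read from the deposited tables of UMI counts, 1 per embryo and cluster. The authors made these counts with Cell Ranger on the mm10 build, as the submitters' processing notes name it, filtered nuclei, integrated embryos with Harmony and clustered them, and the deposited counts are raw whole numbers per gene and nucleus. Doublets were not called here, and strand-specific counting is not given in the sources used here. Another saline embryo was not analysed here. The 10 genes, the marker lists and the pathway list were chosen with earlier results of these data known.

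Counts were summed per embryo and cluster (at least 10 nuclei) or major type and tested over all genes passing filterByExpr with edgeR 4.0.16 (TMM, quasi-likelihood, treatment as the only term, Benjamini-Hochberg adjustment). Genes were called where the fold change was below 0.8 or above its inverse and the adjusted p under 0.05. Differences of effects between types were tested with limma 3.58.1 on differences of log2 CPM within embryos (prior count 2). The steps were tested on simulated data first. Embryos held 14078316 to 83061737 UMIs. Alternatives were DESeq2 1.42.0, RLE factors, no filter, 30 nuclei, limma voom with the dam as a block, sums per dam, thinning to 2000 UMIs, leaving out the top 5% of nuclei, a batch block and leaving out each embryo. Leaving out barcodes of 3 or more libraries was chosen after seeing the data.

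Per the labels, dams S1 and E1 share library batch 1 and dams S2 and E2 batch 2, so the batch pairs the samples. The fit with it as a block is given beside each result of the 10 genes whose call it changes. It is not given for the other pathway genes. Deviations of same-numbered dams correlated at -0.053 in RGCs, 0.047 in IPCs, -0.025 in PNs and 0.076 in Int. All 10 genes are named, with up to 3 nearest genes each, pathway genes called in most clusters and those of the same families.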

Additional observations from a re-analysis of the deposited data

Results flagged for a closer look

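Of 48 groups of embryos examined, 3 held an embryo whose distance from the nearest other exceeded Dixon's 95% critical value, where chance gives about 1 in 20. In Cluster 8 the EtOH embryo E2-3 held 98.9 CPM of Fzd3, with the next at 128. The same embryo held 1.42 CPM of Fzd8 in PNs, with the next at 2.22. In Cluster 4 the EtOH embryo E2-4 held 3.62 CPM of Dkk2, with the next at 1.79. Without E2-3 the log2 changes were -0.31 for Fzd3 in Cluster 8 (edgeR, adjusted p = 0.0799) and -0.57 for Fzd8 in PNs (0.0776), and without E2-4 that of Dkk2 in Cluster 4 was -2.79 (0.0773).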

How the results depend on the processing

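In the clusters, the 3 calls became 0 with the batch as a replicate block, 0 with counts summed per dam, 0 after thinning to 2000 UMIs and 8 with no filter on low counts, and ranged from 0 to 6 with 1 embryo left out. In the major types, the 2 calls became 0 with counts summed per dam, 0 with limma voom, 0 after thinning and 1 without the top 5% of nuclei, ranged from 0 to 4 with 1 embryo left out, and were 3 with the replicate block. Both highest counts were reached without S2-4, and without S1-2 the clusters held 1 call. S2-4 was the saline embryo of lowest depth, with a median of 6325 UMIs per nucleus. The other saline embryos held 8365 to 9051 and the EtOH embryos 4072 to 6911. The cause of these changes in the number of calls was not tested. Among the called pairs of gene and place, the replicate block ended the calls of Fzd3 and Sfrp1 in Cluster 8 and of Dkk2 in Cluster 4, kept those of Fzd8 and Dkk2 in PNs, and added Sfrp1 in PNs. None of the 25 differences between types passed in any alternative run. The cluster of highest level was the one of highest thinned share for 6 of 10 genes, the exceptions being Fzd1, Fzd3, Fzd7 and Dkk2, and the highest in saline alone for 9. The sign turned for Fzd2 in Cluster 12, from a log2 change of -0.0022 to 0.043 with limma voom and between -0.079 and 0.11 with 1 embryo left out (above 0 without E1-1, E1-2, E2-3, S2-2 or S2-4), and for Sfrp2 in Cluster 3, from 0.099 to between -0.19 and 0.25 with 1 embryo left out (below 0 without E2-1 or S1-1). Fzd8 in PNs and Dkk2 in Cluster 4 had too few counts to be tested after thinning.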
